A study of Mus musculus with 6 samples.

Results

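The second of 3 independent experiments is described here against the first and the third. Its members are 2 of the 6 samples of the series, the DMSO sample and the TSA sample that carry replicate number 2, and they were compared with the 4 samples numbered 1 and 3. All samples were mouse embryonic stem cells of 129/Ola background that had been plated on gelatin, differentiated in N2B27, a serum-free medium, and collected as day 3 cells. DMSO, the solvent, or TSA (trichostatin A, which blocks histone deacetylases) was given for 24 h; the dose is not given in the labels. Plating density is given as a range and not by experiment. Total RNA of each sample was hybridised to 1 single-colour Agilent array. Each experiment had its own slide and scan, so a property of the cells of experiment 2 and a property of its slide cannot be told apart. Experiment 2 is also a single experiment: its DMSO and TSA samples are not replicates of each other, and p-values below measure the spread between arrays.

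The array of the TSA sample of experiment 2 was dim. The 75th percentile of its signal was 311 intensity units, against 632 to 926 on the other 5 arrays. The RNA that is added to every sample as a control stood 6.03 above that percentile on the log2 scale, against 4.07 to 4.70 on the others, and 61.1% of its spots were well above background, against 65.6% to 72.3%. Its signal correlated at 0.952 and 0.955 with the other TSA arrays, while all other pairs within a treatment correlated at 0.986 or 0.987. The DMSO array of experiment 2 had none of these features, with a 75th percentile of 654. For that reason levels or differences are given within DMSO, where the dim array plays no part, beside those within TSA.

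Cells of the early embryo that form mesoderm and definitive endoderm pass through the primitive streak, a transient structure that Nodal, Wnt, BMP and FGF signals induce. The T-box factor T (Brachyury) and the homeobox factors Mixl1 and Gsc mark the streak and the mesendoderm that forms there. Mesendoderm then divides into definitive endoderm, marked by Foxa2 and Sox17, axial mesendoderm of the node and notochord, and paraxial and posterior mesoderm. In N2B27 without added factors, stem cells tend toward neural fates, and streak-like cells arise to an extent that depends on signals the cells make themselves. In RNA from a whole culture, more cells of a type and more RNA per cell cannot be told apart.

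A level below is the log2 signal of a gene's brightest tested probe minus the 75th percentile of its array, and a difference is experiment 2 minus the mean of experiments 1 and 3. Among 14867 tested genes, 175 (1.18%) were higher in experiment 2 than on both other arrays by at least 1 on the log2 scale in DMSO and again in TSA, and 28 (0.188%) were lower by as much. Such genes are called apart below. With no minimum size, the arrays did not overlap in either treatment for 5158 genes (34.7%) that were higher and 2911 (19.6%) that were lower. By limma with treatment as a term, 0 genes were higher (0%) and 0 lower (0%) at an adjusted p under 0.05, with a lowest adjusted p of 0.110; 2941 higher and 1702 lower genes had an unadjusted p under 0.05. The apart genes are therefore a description of these 6 arrays and none passed that test. When only the 13256 genes above background on all 6 arrays were tested, 22 were higher and 1 lower by limma at an adjusted p under 0.05, and all 23 were apart. They include Wnt3a (adjusted p = 0.0133), Gsc, Cdx2, Cdx1 and Sp5 (each adjusted p = 0.0473) and Foxa2 (adjusted p = 0.0496). Frzb, Apln, Lama1 and Rsph9, which are also in lists, passed as well. The other higher genes that passed are in none of the lists: Cd82, Ntn1, Akr1c12, Chil3, Hkdc1, Gal, Pth1r, Palmd, Irx1, Atoh8, Kcnab2 and Ctsh. The slides pair the samples. With the slide as fixed terms 0 genes passed. With the slide as a random effect 1768 were higher and 1146 lower, but that fit took a correlation within slides of -0.289. A negative value narrows the error of a comparison between slides, so these counts are not read as calls.

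**Figure D1:**
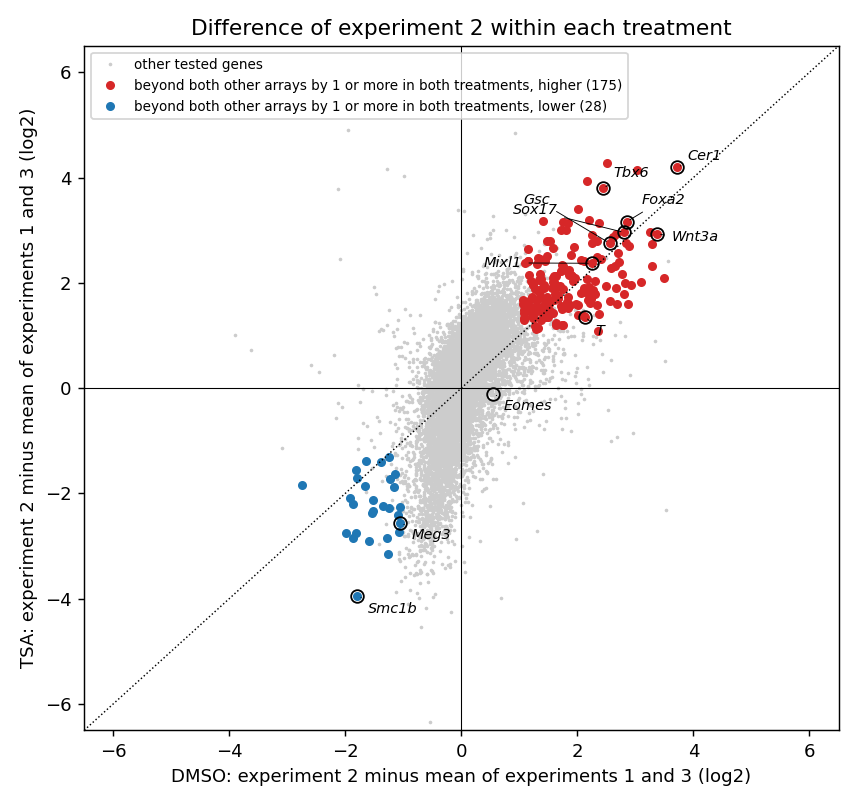
Difference of experiment 2 from the mean of experiments 1 and 3 for each tested gene, in DMSO (horizontal axis) and in TSA (vertical axis), both on the log2 scale; the dotted line marks equal differences. The 175 genes in red and the 28 in blue lay beyond both other arrays by 1 or more in both treatments, and the cloud is wider along the TSA axis, where the dim array enters.

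Within DMSO alone, 299 genes were higher by at least 1 than on both other arrays and 53 were lower. Within TSA alone, where the dim array enters, the counts were 1587 and 1475. The 175 apart genes are thus 58.5% of the higher genes of DMSO and 11% of those of TSA, and the 28 are 52.8% and 1.90% of the lower ones. The median over all tested genes was 0.06 in DMSO, 0.37 in TSA and 0.21 in the fit, and list medians are to be read against these values. The lists share members, so their counts are not separate. Together the mesendoderm, endoderm, axial, paraxial and posterior lists held 38 different apart higher genes among 105 tested. For example, T, Evx1, Fgf8, Sp5 and Cdx1 are in both the mesendoderm and the posterior list. List counts depended on the scaling: with normexp and quantile normalization, and in the authors' table, apart higher genes numbered 9 and 13 in the mesendoderm list (15 here), 5 and 9 in the posterior list (15), 9 and 10 in the axial list (11), 4 and 6 in the endoderm list (6) and 2 and 3 in the paraxial list (6). In the same order they numbered 3 and 4 among Wnt targets (5), 1 and 2 in visceral endoderm (3), 0 and 1 in the early neural list (2), 0 and 1 in lateral mesoderm (1) and 2 and 2 in the Nodal pathway (2). Of the 175 higher genes, 129 were above background on all 6 arrays and 14 on only 2, and these 14 could pass the filter on dim probes only by being bright in at least 2 arrays. Genes near the limit of 1 were Mcpt4, whose smaller gap was 1.01, and Spink1, at 0.9997.

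The 5 markers of mesendoderm and endoderm progression were all apart and higher. They were given with the comparison, with earlier results of these data known, so their direction is a description and no support. T was at 0.41 and 1.34 on the DMSO arrays of experiments 1 and 3 and at 3.00 in experiment 2, and in TSA it was at 2.66, 2.73 and 4.05 in that order. Mixl1 was at -5.30 and -6.14 in DMSO against -3.47 in experiment 2, and at -2.47 and -3.86 in TSA against -0.80. Both genes had higher levels in TSA than in DMSO within every experiment, and experiment 2 was the highest of its treatment each time. Gsc, a homeobox gene of the organizer and the anterior streak, was at -1.98 and -1.24 in DMSO against 0.95, and at -0.99 and -1.16 in TSA against 1.68. Foxa2, a forkhead factor of endoderm and node, was at 0.30 and 1.46 in DMSO against 3.73, and at -0.12 and 0.68 in TSA against 3.44. Sox17, an endoderm factor, was at -2.78 and -0.94 in DMSO against 0.95, and at -2.32 and -1.06 in TSA against 1.27. For T, Gsc, Foxa2 and Sox17 both arrays of experiment 2 were above all 4 others, whatever the treatment. The fitted differences (± SE, 2 against 4 arrays) were 3.01 ± 0.39 for Foxa2, 2.88 ± 0.58 for Sox17, 2.65 ± 0.26 for Gsc, 2.31 ± 0.44 for Mixl1 and 1.74 ± 0.33 for T. None passed at an adjusted p of 0.110 (limma), and the difference between TSA and DMSO in these values was not called for any of the 5 (limma interaction, adjusted p 0.45 to 0.95).

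**Figure D2:**
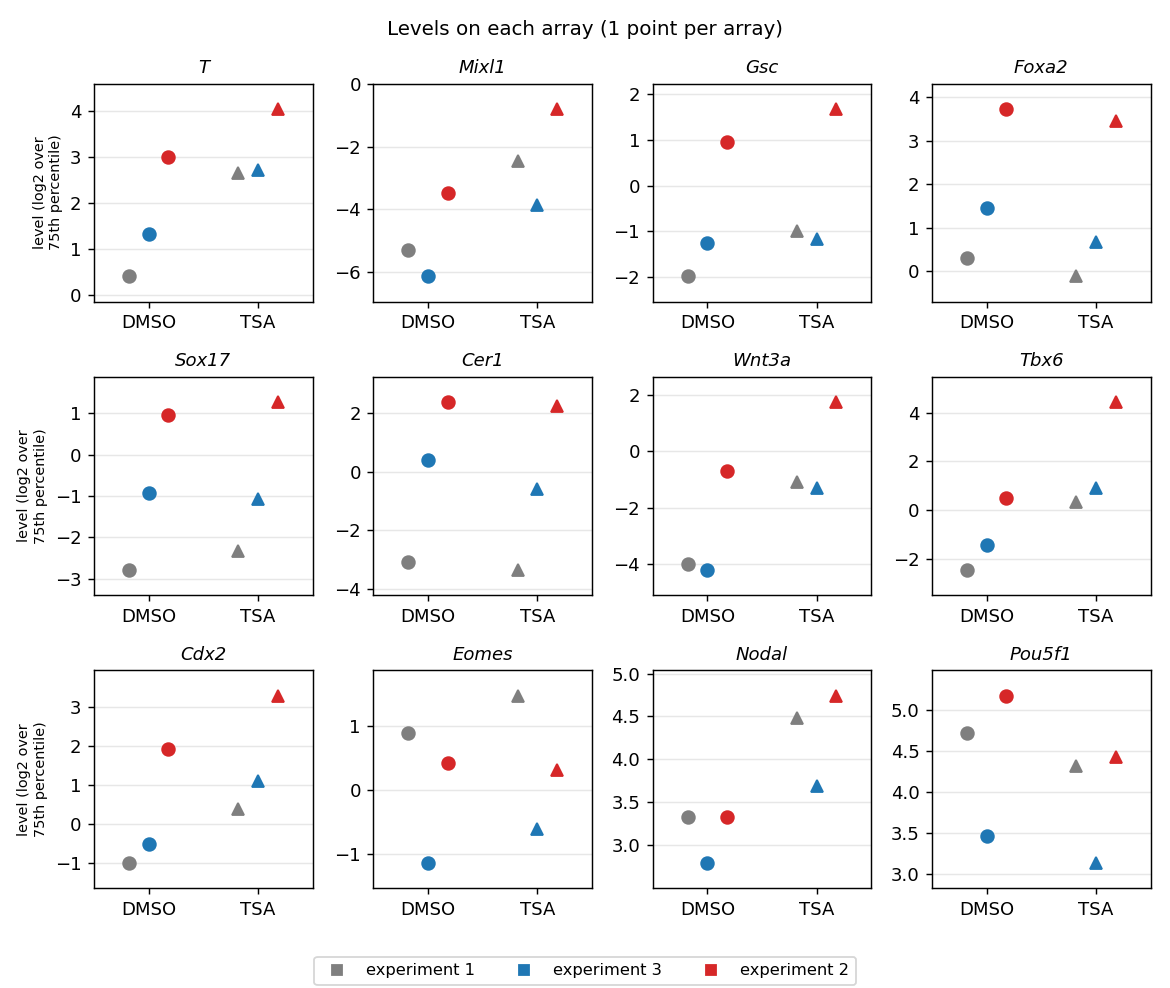
Levels of 12 genes on each of the 6 arrays, as log2 signal over the array's 75th percentile (vertical axis, scaled for each gene), by treatment (circles DMSO, triangles TSA) and experiment (grey 1, blue 3, red 2). Experiment 2 is the highest of its treatment for T, Mixl1, Gsc, Foxa2, Sox17, Cer1, Wnt3a, Tbx6 and Cdx2, while Eomes lies between the other experiments in both treatments.

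Genes of the mesendoderm and primitive streak were higher in experiment 2 as a group. Of 28 tested members of the list, 27 of them above background on all 6 arrays, 15 were apart and higher and 0 lower, and 23 did not overlap on the higher side. The shares over all tested genes were 1.18% apart and higher and 34.7% without overlap on that side. The list median was 1.56 in DMSO and 1.94 in TSA. Cer1, a secreted antagonist of Nodal, BMP and Wnt, had the largest fitted difference of all tested genes, 3.96 ± 1.11. It was at -3.08 and 0.39 in DMSO against 2.37, and at -3.36 and -0.58 in TSA against 2.23, so that experiments 1 and 3 also lay far from each other. Mesp1, a bHLH factor of nascent mesoderm, was at -4.88 and -3.13 in DMSO against -1.63, and at -2.77 and -1.65 in TSA against 0.92 (difference 2.75 ± 0.56). Evx1, a homeobox gene of the posterior streak, was at -4.85 and -5.88 in DMSO against -3.17, and at -2.59 and -3.40 in TSA against 0.20 (difference 2.70 ± 0.42). Lhx1, a LIM homeobox gene of streak and head organizer, differed by 2.80 ± 0.74 (3.28 in DMSO, 2.32 in TSA), and Aplnr, the apelin receptor of migrating mesoderm, by 2.80 ± 0.52 (2.67 in DMSO, 2.92 in TSA). The ligand of that receptor, Apln, differed by 1.79 ± 0.19, with 0.83 and 0.81 in DMSO against 2.80 and 1.81 and 1.71 in TSA against 3.36. Fgf8, a growth factor that streak cells need in order to migrate, differed by 1.92 ± 0.36 (1.44 in DMSO, 2.41 in TSA), and Sp5, a direct Wnt target, by 1.81 ± 0.18 (1.74 in DMSO, 1.88 in TSA).

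Not every streak gene took part. Eomes, a T-box factor that acts upstream of Mesp1 and of endoderm genes, was at 0.88 and -1.14 in DMSO against 0.41, and at 1.47 and -0.60 in TSA against 0.31. It thus lay between the other experiments in both treatments (difference 0.21 ± 0.74), and the difference was -0.81 when experiment 3 was left out. Nodal itself was at 3.33 and 2.79 in DMSO against 3.33 and at 4.48 and 3.70 in TSA against 4.74 (difference 0.46 ± 0.30), level with experiment 1 in DMSO. Lefty2, a Nodal inhibitor of the streak, lay between the other experiments in both treatments, at -1.89 and -0.65 in DMSO against -1.5 and at -2.02 and 0.12 in TSA against 0.05 (difference 0.38 ± 0.68). Wnt3, a ligand that starts streak formation, differed by 0.76 ± 0.21 (0.51 in DMSO, 1.01 in TSA), and Kdr, the VEGF receptor of blood and vessel precursors, by 0.77 ± 0.43 (0.75 in DMSO, 0.79 in TSA).

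Definitive endoderm genes were also higher, with a list median of 0.85 in DMSO and 1.17 in TSA. Of 30 tested members, 26 above background on all 6 arrays, 6 were apart and higher, against 1.18% of all genes, and 0 lower. On the higher side 24 did not overlap, against 34.7% of all genes. Besides Foxa2, Sox17 and Cer1, the apart members were Cxcr4, Dkk1 and Tmprss2. Foxa2, Sox17, Cer1 and Dkk1 are also in the axial list below. Cxcr4, a chemokine receptor used to sort endoderm, was at -4.75 and -3.52 in DMSO against -2.30, and at -3.42 and -3.84 in TSA against -2.11 (difference 1.68 ± 0.37). Dkk1, a secreted Wnt inhibitor of anterior endoderm, was at -2.02 and -0.15 in DMSO against 1.26, and at -1.42 and -0.32 in TSA against 1.92 (difference 2.57 ± 0.57). Hhex, a homeobox gene of anterior endoderm, missed the limit for apart genes narrowly, with a smaller gap of 0.98 and a difference of 1.49 ± 0.30 (1.40 in DMSO, 1.57 in TSA). Gata6 differed by 1.60 ± 0.54 (1.53 in DMSO, 1.67 in TSA), Foxa1 by 1.23 ± 0.54 (1.78 in DMSO, 0.67 in TSA), Gata4 by 1.12 ± 0.30 (0.98 in DMSO, 1.26 in TSA) and Nepn, the matrix protein nephrocan, by 1.19 ± 0.22 (1.23 in DMSO, 1.15 in TSA). Epcam, an epithelial adhesion protein that endoderm shares with stem cells, was not higher (difference -0.33 ± 0.19, -0.52 in DMSO, -0.15 in TSA), and neither was the homeobox gene Otx2 (-0.10 ± 0.21, -0.23 in DMSO, 0.04 in TSA). Gata4 was not above background on either array of experiment 1, nor Nepn on its TSA array.

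The axial list, which covers the anterior streak, node and notochord, had 24 tested members, of which 11 were apart and higher, 0 lower, and 20 did not overlap on the higher side; 22 were above background on all 6 arrays. Over all genes 1.18% were apart and higher and 34.7% did not overlap on that side. The list median was 1.69 in DMSO and 1.72 in TSA. Shh, the signal of notochord and floor plate, was at -7.08 and -3.60 in DMSO against -2.46, and at -7.53 and -4.83 in TSA against -3.49 (difference 2.79 ± 1.10). Both arrays of experiment 1 were the lowest for Shh and were not above background, so that the difference rests partly on background. Frzb, a secreted Wnt antagonist, differed by 2.04 ± 0.25 (1.74 in DMSO, 2.34 in TSA), Vtn, the matrix protein vitronectin, by 2.48 ± 0.42 (2.65 in DMSO, 2.32 in TSA), and Tppp3, a microtubule-binding protein, by 1.97 ± 0.26 (2.10 in DMSO, 1.83 in TSA). The BMP antagonists Nog and Chrd, both made by the node, differed by 1.48 ± 0.27 (1.11 in DMSO, 1.84 in TSA) and 0.82 ± 0.18 (0.80 in DMSO, 0.83 in TSA), without reaching the limit for apart genes. Lefty1, the Nodal inhibitor of the midline, differed by 1.24 ± 0.31 (0.90 in DMSO, 1.58 in TSA), with arrays of experiment 2 above all 4 others. Vtn was not above background on the TSA arrays of experiments 1 and 3.

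Mesoderm that follows the streak gave a similar picture in its paraxial branch. Of 19 tested paraxial and presomitic genes, 15 above background on all 6 arrays, 6 were apart and higher, against 1.18% of all genes, and 0 lower. On the higher side 17 did not overlap, against 34.7% of all genes. The median was 1.15 in DMSO and 1.49 in TSA. Tbx6, a T-box factor that commits cells to paraxial mesoderm, was at -2.45 and -1.44 in DMSO against 0.49, and at 0.35 and 0.92 in TSA against 4.43 (difference 3.12 ± 0.43). Msgn1, a bHLH factor of presomitic mesoderm, was at -7.09 and -5.61 in DMSO against -4.34, and at -3.25 and -2.64 in TSA against 0.46 (difference 2.71 ± 0.51); it was above background on 5 arrays. In TSA the gap of these genes was wider than in DMSO, without an interaction call (limma, adjusted p = 0.30 for Tbx6 and 0.40 for Msgn1). Aldh1a2, which makes retinoic acid, differed by 2.80 ± 0.58 (2.84 in DMSO, 2.75 in TSA), Hes7, of the segmentation clock, by 1.90 ± 0.32 (1.35 in DMSO, 2.45 in TSA), and the Notch ligands Dll3 and Dll1 by 1.78 ± 0.32 (1.15 in DMSO, 2.41 in TSA) and 1.32 ± 0.31 (0.73 in DMSO, 1.90 in TSA).

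Of 26 tested posterior and caudal genes 15 were apart and higher and 0 lower, against 1.18% of all genes. All 26 had a positive fitted difference (64.4% of all genes), 24 did not overlap on the higher side (34.7% of all genes), and 20 were above background on all 6 arrays. The median was 1.61 in DMSO and 1.80 in TSA. Wnt3a, the Wnt ligand of the tail bud, was at -3.98 and -4.19 in DMSO against -0.71, and at -1.07 and -1.30 in TSA against 1.74 (difference 3.15 ± 0.21). Experiments 1 and 3 lay close together for this gene, so that experiment 2 alone stood off in each treatment. Cdx2, a caudal homeobox factor, was at -1.01 and -0.53 in DMSO against 1.93, and at 0.37 and 1.10 in TSA against 3.31 (difference 2.64 ± 0.28). Its relatives Cdx1 and Cdx4, the latter not above background on the DMSO arrays of experiments 1 and 3, differed by 2.42 ± 0.29 (2.34 in DMSO, 2.49 in TSA) and 1.73 ± 0.26 (1.82 in DMSO, 1.64 in TSA). Hoxb4 differed by 1.55 ± 0.22 (1.48 in DMSO, 1.61 in TSA).

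The Hox genes, which give cells their position along the body axis, were looked at as a family after their values were seen. Of 36 named on the array, 24 were tested and 16 of those were above background on all 6 arrays. Experiment 2 was above both other arrays in both treatments for 24 of the 24, against 34.7% of all genes, and 9 were apart, against 1.18%. The fitted differences ran from 0.41 to 2.79, with a median of 1.51 over 10 genes of paralog groups 1 to 4 (1.40 in DMSO, 1.51 in TSA), 1.46 over 8 genes of groups 5 to 8 (1.45 in DMSO, 1.67 in TSA) and 1.42 over 6 genes of groups 9 to 13 (1.17 in DMSO, 1.62 in TSA). Anterior genes outside the list took part as well: Hoxb3 differed by 2.40 ± 0.41 (1.81 in DMSO, 3.00 in TSA), Hoxd4 by 1.75 ± 0.47 (2.12 in DMSO, 1.38 in TSA) and Hoxa2 by 1.48 ± 0.40 (1.22 in DMSO, 1.74 in TSA), all 3 chosen after their values were seen.

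Because these genes were high together, the 250 bases before the RefSeq start of each gene (GRCm38.p6) were searched for 7 short motifs on both strands. T, Mesp1, Msgn1 and Cdx2 are shown, as streak, mesoderm and caudal genes of which 3 hold a match and 1 holds none; capitals mark the match. Mesp1 is read from chr7:79793591-79793840 (minus strand), Msgn1 from chr12:11208949-11209198 (minus strand), Cdx2 from chr5:147307250-147307499 (minus strand) and T from chr17:8434173-8434422 (plus strand).
Mesp1: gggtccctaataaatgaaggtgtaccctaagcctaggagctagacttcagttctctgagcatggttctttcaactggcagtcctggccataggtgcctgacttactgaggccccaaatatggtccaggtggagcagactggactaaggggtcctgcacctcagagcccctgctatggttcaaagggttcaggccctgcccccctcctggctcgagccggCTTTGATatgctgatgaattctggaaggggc
Msgn1: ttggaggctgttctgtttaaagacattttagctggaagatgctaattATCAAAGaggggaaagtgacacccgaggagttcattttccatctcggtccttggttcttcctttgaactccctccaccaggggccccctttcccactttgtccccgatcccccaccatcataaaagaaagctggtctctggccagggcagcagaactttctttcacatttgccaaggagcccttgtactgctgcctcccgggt
Cdx2: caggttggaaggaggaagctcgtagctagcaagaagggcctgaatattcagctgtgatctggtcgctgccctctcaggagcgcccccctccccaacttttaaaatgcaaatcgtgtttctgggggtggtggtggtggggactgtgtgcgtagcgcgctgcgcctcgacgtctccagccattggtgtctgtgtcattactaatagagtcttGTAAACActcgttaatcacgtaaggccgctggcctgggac
T: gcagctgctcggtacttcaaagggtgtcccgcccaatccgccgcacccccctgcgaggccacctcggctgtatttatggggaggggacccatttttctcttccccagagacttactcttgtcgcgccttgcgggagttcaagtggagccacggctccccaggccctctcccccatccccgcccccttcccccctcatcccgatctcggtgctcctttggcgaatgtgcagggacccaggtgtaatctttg
Mesp1 and Msgn1 hold the TCF/LEF motif CTTTGAT or its reverse complement, the letters read by Wnt effectors, and Cdx2 holds the forkhead motif TGTTTAC in reverse. Among 127 apart higher genes with a promoter in the table, 8 (6.30%) held the TCF/LEF motif, against 2.88% of 11802 tested genes and 3.72% of all genes in the table. The T-box motif GGTGTGA was held by 1.57% against 3.52% of tested genes, the FoxH1 motif TGTNNATT by 7.09% against 8.23%, the forkhead motif by 3.15% against 2.83%, and the Sox motif CATTGT by 5.51% against 8.16%. The Gsc and Otx motif TAATCC was held by 2.36% against 6.30% and the Gata motif AGATAA by 7.87% against 7.80%. These shares were not tested, a match is not a bound site, and distal enhancers lie outside the window.

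Lists of other mesoderm and of extraembryonic lineages held 1 to 3 apart genes each, where 1.18% of all genes were apart and higher. Of 21 tested lateral, cardiac and blood genes, 15 above background on all 6 arrays, Mesp1 alone was apart, 0 were lower, and 9 did not overlap on the higher side, against 34.7% of all genes; the median was 0.49 in DMSO and 0.67 in TSA. Smarcd3, a chromatin subunit of heart precursors, differed by 1.21 ± 0.20 (1.06 in DMSO, 1.35 in TSA), Runx1, a blood factor, by 0.97 ± 0.21 (0.70 in DMSO, 1.24 in TSA) and Isl1, a factor of the second heart field, by 1.38 ± 0.45 (1.30 in DMSO, 1.46 in TSA), although it was not above background on the DMSO array of experiment 1. Visceral and extraembryonic endoderm, which shares many genes with definitive endoderm, had 3 of 24 tested members apart and higher (Sox17, Lama1 and Col4a2), 0 lower, and 21 that did not overlap on the higher side. Its count without overlap stands against the same 34.7% of all genes. The median of this list was 0.89 in DMSO and 1.12 in TSA. Lama1, a laminin chain of basement membranes, differed by 1.76 ± 0.21 (1.61 in DMSO, 1.91 in TSA), Col4a2, a collagen of the same membranes, by 1.26 ± 0.19 (1.09 in DMSO, 1.42 in TSA) and Afp, the fetal serum protein, by 1.14 ± 0.20 (0.96 in DMSO, 1.31 in TSA), while Lrp2, an endocytic receptor, was lower (-1.11 ± 0.23, -0.85 in DMSO, -1.37 in TSA). Ttr, another visceral endoderm gene, did not pass the filter on dim probes. Of 18 tested trophoblast genes 1, Cdx2, was apart, and of 13 fibroblast or feeder genes 0 were, with list medians of 0.30 and -0.19 in DMSO and 0.60 and 0.50 in TSA.

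**Figure D3:**
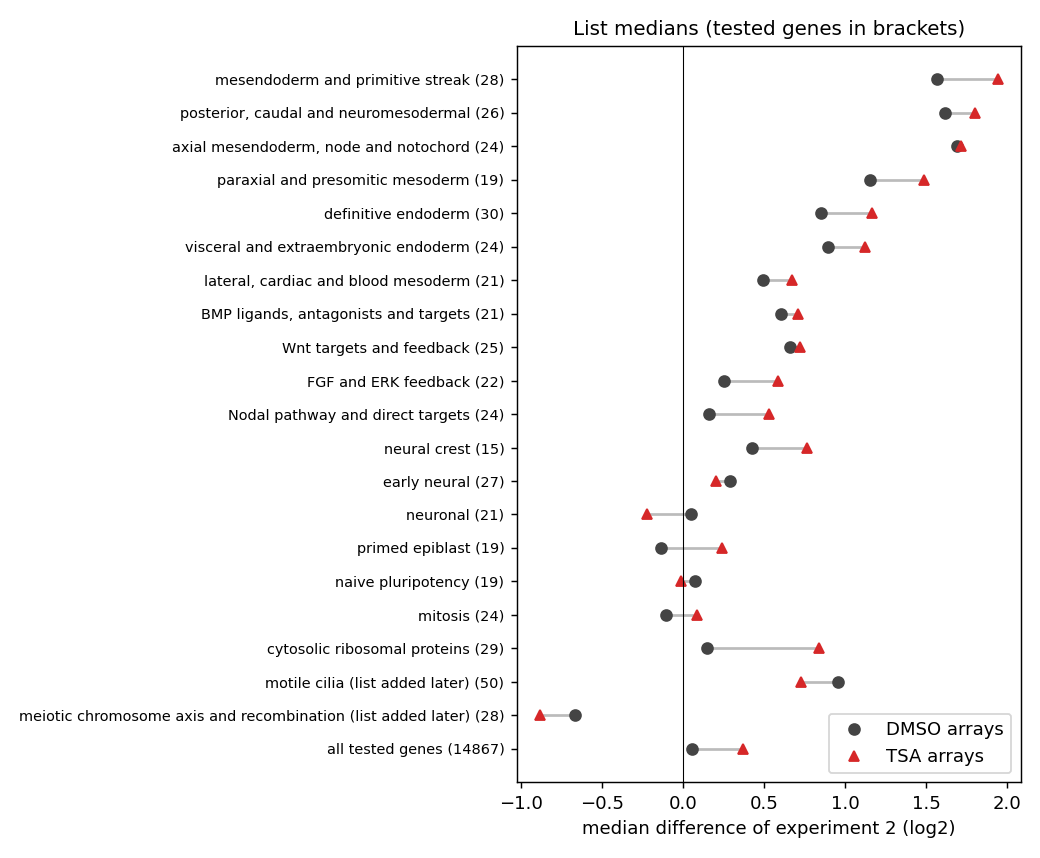
Median over the tested genes of each list of the difference of experiment 2 from the mean of experiments 1 and 3, on the log2 scale, within DMSO (circles) and within TSA (triangles). Mesendoderm, posterior, axial, paraxial and definitive endoderm lists lie to the right in both treatments. The visceral and extraembryonic endoderm list (0.89 and 1.12) lies about as far right as definitive endoderm (0.85 and 1.17), and the motile cilium list (0.96 and 0.73) also lies to the right. The meiotic list lies to the left, and all tested genes have medians of 0.06 and 0.37.

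Apart genes were also found in the signalling pathways that act in the streak. Their counts stand against 1.18% of all genes that were apart and higher and 0.188% that were apart and lower. In the Nodal pathway 2 of 24 tested members were apart and higher, Cer1 and Cfc1, 0 were lower, and the median was 0.16 in DMSO and 0.53 in TSA. Cfc1, a co-receptor of Nodal, was at -1.68 and -0.82 in DMSO against 0.48, and at -1.73 and -1.29 in TSA against a level near 0 (difference 1.62 ± 0.30). Foxh1, the transcription partner of the pathway's Smad proteins, differed by 0.95 ± 0.23 (0.59 in DMSO, 1.31 in TSA), and Skil, a repressor of those proteins that they also induce, was lower (-1.17 ± 0.29, -0.59 in DMSO, -1.76 in TSA). Of 25 tested Wnt targets and feedback genes 5 were apart and higher, 0 lower, with a median of 0.66 in DMSO and 0.72 in TSA. The feedback inhibitors Nkd1 and Notum differed by 1.32 ± 0.22 (1.05 in DMSO, 1.59 in TSA) and 1.20 ± 0.22 (1.06 in DMSO, 1.34 in TSA). The receptor gene Fzd10, in no list and chosen after its values were seen, differed by 1.58 ± 0.22 (1.33 in DMSO, 1.83 in TSA). Among FGF and ERK genes 2 of 22 were apart and higher, with a median of 0.25 in DMSO and 0.58 in TSA, and among BMP genes 1 of 21, with medians of 0.60 and 0.71; 0 were apart and lower in either list.

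Pluripotency genes lay near the rest of the transcriptome. Of 19 tested naive genes and 19 tested primed epiblast genes 0 were apart, with medians of 0.08 and -0.14 in DMSO and -0.01 and 0.24 in TSA. Pou5f1 (Oct4), which stem cells and the early streak share, was at 4.71 and 3.46 in DMSO against 5.17, and at 4.31 and 3.13 in TSA against 4.42 (difference 0.90 ± 0.47). Experiment 3 was the low one for this gene, and experiment 2 was close to experiment 1. Zfp42 (Rex1) differed by -0.48 ± 0.29 (-0.40 in DMSO, -0.56 in TSA), Sox2 by -0.38 ± 0.24 (-0.02 in DMSO, -0.75 in TSA) and Fgf5 by -0.27 ± 0.40 (0.34 in DMSO, -0.89 in TSA), and Cdh1, the adhesion protein E-cadherin, by -0.15 ± 0.18 (-0.15 in DMSO, -0.16 in TSA).

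Early neural genes gave no common direction in the markers most used. Sox1 was at -4.85 and -4.97 in DMSO against -4.16, and at -4.50 and -4.86 in TSA against -3.85 (difference 0.79 ± 0.20), while Pax6 (-0.06 ± 0.24, 0.17 in DMSO, -0.29 in TSA) and Nes (0.11 ± 0.20, 0.11 in DMSO, 0.12 in TSA) were close to 0 and took the other sign under quantile normalization. Over the list 2 of 27 tested members, Hes3 and Lhx5, were apart and higher, against 1.18% of all genes, and 0 were lower. The median was 0.29 in DMSO and 0.20 in TSA. Without overlap were 13 members on the higher side and 1 on the lower, against 34.7% and 19.6% of all genes. In DMSO 4 of the 27 members (14.8%) were above both other arrays by at least 1, against 2.01% of all genes. The list median lay above that of all tested genes in DMSO (0.06) but below it in TSA (0.37). Hes3, a bHLH repressor found in neural progenitors, differed by 2.59 ± 0.29 (2.26 in DMSO, 2.91 in TSA) and Lhx5, a forebrain factor, by 1.32 ± 0.20 (1.21 in DMSO, 1.43 in TSA). Of 21 tested neuronal genes 0 were apart, and of 15 neural crest genes 1 was apart and higher. Of the neural crest genes 10 did not overlap on the higher side, and 20% were above both other DMSO arrays by at least 1. Hes3 was not above background on the TSA arrays of experiments 1 and 3.

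Experiments 1 and 3 also differed from each other in many of these genes. Among the 175 apart higher genes, 96 (54.9%) had experiment 3 above experiment 1 in both treatments, against 27.8% of all tested genes. The share was 76.9% of posterior and caudal genes, 68.4% of paraxial genes, 66.7% of definitive endoderm genes, 60.7% of mesendoderm genes and 58.3% of axial genes. It was as high or higher in lists of other kinds, with 84.6% of fibroblast or feeder genes, 83.3% of interferon-stimulated genes, 77.8% of trophoblast genes and 66.7% of glycolysis and hypoxia genes, and it was 14.8% of early neural genes. Cer1, Sox17, Lhx1 and Foxa2 followed this order, whereas Mixl1 and Evx1 were lower in experiment 3 than in experiment 1. Arg1, the enzyme arginase 1 and in no list, had the same order, at -5.39, -2.06 and -0.47 in DMSO and at -2.64, -0.97 and 1.16 in TSA for experiments 1, 3 and 2 (difference 3.11 ± 0.93).

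Of the 175 apart higher genes, 121 were in none of the lists. A set of genes of motile cilia, the beating hairs of node cells and of many epithelia, was put together as a list after their values were seen, so its count is a description. Over all genes 1.18% were apart and higher. Of the list's 50 tested members, 41 above background on all 6 arrays, 10 were apart and higher and 0 lower. The count of 10 was 4 with normexp and quantile normalization and 8 in the authors' table. On the higher side 30 did not overlap, against 34.7% of all genes, and the median was 0.96 in DMSO and 0.73 in TSA. Values of the members not above background on every array rest partly on background. Foxj1, the master regulator of these cilia, was at -1.39 and -0.44 in DMSO against 1.40, and at -0.86 and -0.98 in TSA against 0.06 (difference 1.64 ± 0.40). Rsph9, a protein of the radial spoke, differed by 2.02 ± 0.22 (1.89 in DMSO, 2.15 in TSA), Cfap126, a basal body protein, by 1.92 ± 0.31 (2.19 in DMSO, 1.66 in TSA), and Dynlrb2, a dynein light chain, by 2.28 ± 0.38 (2.67 in DMSO, 1.90 in TSA). In DMSO 18 members were above both other arrays by at least 1, against 2.01% of all genes, and in TSA 14 were, against 11%, while 3 were lower by as much in TSA. Ntn1, the guidance cue netrin 1 of the floor plate, and Gli1, a target of Shh signalling, differed by 2.02 ± 0.24 (1.80 in DMSO, 2.25 in TSA) and 1.21 ± 0.23 (1.30 in DMSO, 1.12 in TSA), and the carboxypeptidase-like Cpxm2 by 2.56 ± 0.79 (3.09 in DMSO, 2.02 in TSA); these 3 were also chosen after their values were seen.

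Among the genes that were lower in experiment 2, genes of meiosis recurred. They were put together as a list of chromosome axis and recombination genes after their values were seen, and its count is a description as well. Of 28 tested members, 19 above background on all 6 arrays, 6 were apart and lower, against 0.188% of all genes, 0 higher, and 19 did not overlap on the lower side, against 19.6%, with a median of -0.67 in DMSO and -0.88 in TSA. The count of 6 was 7 with quantile normalization and with median centring, but 2 in the authors' table and 0 with normexp and quantile normalization. Smc1b, a cohesin subunit of meiosis, was at -1.22 and -0.77 in DMSO against -2.78, and at 0.26 and -0.35 in TSA against -4.0 (difference -2.87 ± 0.50). Sycp1, which joins paired chromosomes, was at -4.28 and -4.06 in DMSO against -5.71, and at -2.84 and -3.50 in TSA against -5.54 (difference -1.96 ± 0.30). In experiments 1 and 3 both genes had higher levels in TSA than in DMSO, while in experiment 2 Smc1b was lower in TSA. Sycp1, Sycp2 and Hormad1 were not above background on the dim array, so that their values there rest on background, and the fitted differences do in part. The 6 also hold Sycp1-ps1, named as a pseudogene of Sycp1, which differed by -1.99 in DMSO and -2.75 in TSA. It was not above background on either array of experiment 2, so that both differences rest partly on background. Sycp2, of the chromosome axis, differed by -2.36 ± 0.38 (-1.86 in DMSO, -2.85 in TSA), Hormad1, another axis protein, by -1.93 ± 0.36 (-1.29 in DMSO, -2.57 in TSA), and Dmc1, the meiotic recombinase, by -1.59 ± 0.30 (-1.02 in DMSO, -2.16 in TSA). The list of germline and primordial germ cell genes had 1 of 17 tested members apart and lower, Sycp1, 0 higher, and 7 that did not overlap on the lower side. The shares over all genes on the lower side were 0.188% and 19.6%. The list medians were -0.17 in DMSO and -0.24 in TSA.

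**Figure D4:**
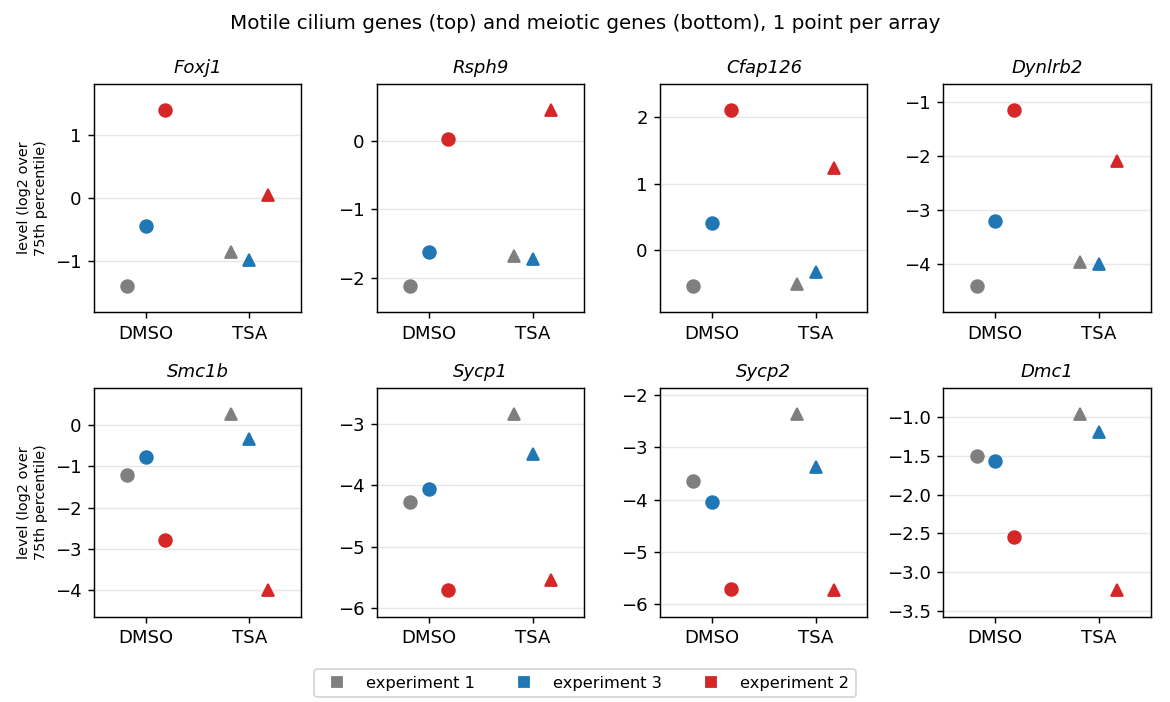
Levels of 4 genes of motile cilia (top row) and 4 genes of meiosis (bottom row) on each of the 6 arrays, as log2 signal over the array's 75th percentile, by treatment (circles DMSO, triangles TSA) and experiment (grey 1, blue 3, red 2). Experiment 2 is the highest of its treatment in every panel of the top row and the lowest in every panel of the bottom row.

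Other lower genes were of many kinds, and 21 of the 28 were in none of the lists. Meg3, a long noncoding RNA of an imprinted locus, was at 5.93 and 5.92 in DMSO against 4.88, and at 5.38 and 5.04 in TSA against 2.64 (difference -1.81 ± 0.36). Dek, a chromatin protein, was at 5.75 and 5.75 in DMSO against 4.69, and at 5.69 and 5.30 in TSA against 3.24 (difference -1.66 ± 0.31). Clk1, a kinase of splicing factors, was at 3.52 and 3.47 in DMSO against 2.40, and at 3.01 and 2.81 in TSA against 0.51 (difference -1.75 ± 0.32). In each of these genes the arrays of experiments 1 and 3 agreed closely, and the TSA array of experiment 2 stood further off than its DMSO array. Zfp979 (difference -2.21 ± 0.42, -1.27 in DMSO, -3.15 in TSA), Bod1l (-1.90 ± 0.38, -1.08 in DMSO, -2.73 in TSA) and Neb, the giant muscle protein nebulin (-1.47 ± 0.25, -1.23 in DMSO, -1.72 in TSA), also differed more in TSA. Pla2r1, a phospholipase receptor, differed alike in both treatments, at -3.67 and -3.91 in DMSO against -5.61 and at -3.0 and -3.20 in TSA against -4.66 (difference -1.69 ± 0.20). It is the lower gene that passed when only genes above background on all 6 arrays were tested (limma, adjusted p = 0.0473). The genes nearest the limit on this side were Baat, with a smaller gap of 1.01, and Cep290, at 0.999. Sult6b1, a sulfotransferase, differed by -1.79 ± 0.30 (-1.35 in DMSO, -2.23 in TSA) and the transporter-like Mfsd6 by -1.39 ± 0.22 (-1.15 in DMSO, -1.64 in TSA). Rspo2, a secreted enhancer of Wnt signalling, differed by -2.01 ± 0.36 (-1.93 in DMSO, -2.09 in TSA) and was above background only on the arrays of experiment 3, so that this value rests on background; it was chosen after its values were seen. Of the 28 lower genes 24 differed more in TSA than in DMSO and 11 were above background on all 6 arrays; of the 175 higher genes 112 differed more in TSA. The part of the dim array in the lower genes beyond their DMSO values was not tested.

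Some genes were above background on only 1 side of the comparison, so that the fold is a lower bound against the background of the other side. They were chosen by that detection, so their direction was fixed by the choice and the p-values beside the bounds are no support for it. The higher ones passed the filter on dim probes only through the arrays of experiment 2. Detected on both arrays of experiment 2 and on 0 of the other 4 were 23 genes, 11 of them apart, and detected on those 4 and on 0 of experiment 2 were 26, 6 of them apart; the bound exceeded the background for 22 of the 26. For each array on the dim side, the background was taken as the lowest level at which any probe counted as detected, or the gene's level if that lay above it, and the mean of the bright side was set against the mean of these. Btnl9, a butyrophilin-like surface protein, was at least 3.02-fold higher (limma, adjusted p = 0.110). Adamts12, a matrix protease, had a bound of at least 4.06-fold higher (limma, adjusted p = 0.110), but it rests on the dim array: the difference was 0.93 in DMSO and 4.84 in TSA, the gene was not apart, and its interaction was called. The olfactory receptor genes Olfr706 and Olfr1179 were at least 4.15-fold and 3.15-fold higher (limma, adjusted p = 0.110 for both), and Ssmem1, with a difference of 0.55 in DMSO and 3.26 in TSA, at least 2.91-fold higher (limma, adjusted p = 0.116). Olfr706 and Olfr1179 were apart, but their bounds rest more on the dim array. In experiment 2 they were at -5.18 and -5.38 in DMSO and at -2.71 and -3.30 in TSA. The probes of olfactory receptors may also bind relatives. Toward the other experiments, Topaz1, a germ cell gene, was at least 1.81-fold lower in experiment 2, Xirp2, an actin-binding muscle protein, at least 1.79-fold lower and Myt1l, a neuronal zinc finger factor, at least 1.62-fold lower (limma, adjusted p = 0.110 for each). Rbm11 and Cyp2r1 had bounds of 1.77-fold and 1.71-fold lower (limma, adjusted p = 0.322 and 0.218), but neither gene was apart. Their differences were -2.13 and -2.06 in DMSO and only -0.28 and -0.37 in TSA, so within TSA they fell short of these bounds. In DMSO the bounds rest largely on experiment 1, where Rbm11 was at -3.09 and Cyp2r1 at -3.46, against -6.04 and -5.53 in experiment 3.

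Whether the difference of experiment 2 was unlike in DMSO and TSA was tested across all probes. The difference was more positive in TSA for 15 of 29152 probes (0.0515%) and more negative for 931 (3.19%) (limma interaction, adjusted p under 0.05). By gene these were 5 and 197, and the 197 had a median difference of -0.46 in DMSO and -2.66 in TSA. They thus lay low mainly on the dim array. Of the 175 apart higher genes 0 were called in this test and 11 had an unadjusted p under 0.05, and of the 28 lower genes 0 were called and 7 had an unadjusted p under 0.05. Of 24 mitosis genes 7 were at least 1 below both other arrays in TSA, against 9.92% of all genes, and 0 in DMSO, against 0.357%.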

How the data were processed

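Per the file headers, the deposited intensity values come from Agilent Feature Extraction (10.7.3.1; 10.7 in the submitters' processing notes), whose processed signal is background-subtracted and not scaled between arrays. The authors' deposited series table holds log2 values whose normalization is not given in the sources used here; its medians are 6.31 to 6.34. Feature coordinates follow mm9 and are not printed.

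Control and outlier-flagged spots were left out, and log2 values were set relative to their own array at its 75th percentile. Tests used 29152 of 41174 probes (70.8%), those well above background on 2 or more arrays; 27484 probes name 1 gene. The main fit was limma 3.58.1 (lmFit and eBayes, two-sided, R 4.3.3) with treatment and experiment 2 as terms, Benjamini-Hochberg adjustment over probes, and a threshold of 0.05; the fit was tested on simulated data. A gene carries its brightest tested probe. The number of arrays limits the precision. Replicate numbers are slide numbers, and deviations of same-numbered arrays correlated at 0.437, 0.583 and 0.549, against -0.509 to 0.0717 for other pairs, so the numbers pair the samples. Levels of different genes are not comparable.

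The rule for named genes gives the 5 markers, the 10 largest differences in each direction among called genes, the 5 largest bounds in each direction, up to 6 genes per described list, by lowest p, and a fixed set of lineage genes; not all are printed. As 0 genes were called, the 10 were taken without the threshold, after values were seen. Members and lists were chosen with earlier results of these data known. Promoters come from RefSeq (GRCm38.p6). Alternatives were quantile normalization, median centring, normexp (offset 50, on median spot signals, as the files give no mean) with quantile normalization, the authors' table, 3 other filters on dim probes, outlier spots kept, slide blocks, intensity trend, array weights, and arrays, experiments or treatments left out; the gap within 1 treatment alone was added after seeing the data. Tables and plots were made in Python 3.11.15 (pandas 2.3.3, matplotlib 3.10.9, numpy 2.4.6).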

Additional observations from a re-analysis of the deposited data

Results flagged for a closer look

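The difference of experiment 2 was unlike in the 2 treatments, by a test of the difference itself (limma interaction, adjusted p under 0.05), for 15 probes that were more positive in TSA and 931 that were more negative. Among listed and named genes, Adamts12 differed by 3.91 more in TSA than in DMSO on the log2 scale (limma interaction, adjusted p = 0.045). The other 3 genes were lower in TSA, with values of TSA minus DMSO of -2.24 for Cenpf, a kinetochore protein, -2.38 for Dazl, an RNA-binding protein of germ cells, and -2.10 for Trp53inp1, a p53 target. Cenpf was at 3.42 and 3.60 in DMSO against 2.60, and at 3.23 and 2.94 in TSA against -0.07. Dazl was at -3.48 and -3.57 in DMSO against -4.22, and at -2.11 and -2.22 in TSA against -5.24. Dazl was not above background on the TSA array of experiment 2, so that its interaction rests partly on background. For these genes the TSA array of experiment 2, which was dim, was the lowest of all 6, and the part of its dimness was not tested.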

How the results depend on the processing

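Counts of called genes depended on the processing, and the cause was not tested. Higher genes numbered 0, but 1 with median centring, 1 with an intensity trend and robust moderation, 22 among probes above background on all 6 arrays, 1768 with a replicate block (slide as a random effect) and 2695 on TSA arrays only. Lower genes numbered 0, but 1 above background on all 6 arrays, 1146 with that block and 1797 on TSA arrays only. The random-effect block took a correlation within slides of -0.289, which narrows the error of a comparison between slides. With the slide as fixed terms both counts were 0. Leaving out arrays or experiments gave 0 to 3201 higher and 0 to 1986 lower genes; without the DMSO array of experiment 2 the comparison rests on the dim array, and it gave both maxima. Without experiment 1 the counts were 368 and 430, and without experiment 3 they were 534 and 426.

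Apart higher genes (175) numbered 42 with normexp, 93 in the authors' table, 272 with no filter on dim probes, 299 in DMSO alone and 1587 in TSA alone. Apart lower genes (28) numbered 3 with normexp, 11 in the authors' table, 11 above background on all 6 arrays, 53 in DMSO alone and 1475 in TSA alone. Leaving out arrays gave 200 to 529 higher and 32 to 133 lower genes. The counts were 264 and 100 without DMSO replicate 1, 326 and 58 without DMSO replicate 3, 350 and 133 without experiment 1, and 529 and 88 without experiment 3. Of all apart genes 86.2% were higher, and 72.5% without the DMSO array of experiment 1 or without that whole experiment. The median difference of all genes was 0.21, 0.08 with normexp, 0.10 in the authors' table and 0.32 with no filter.

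Probes more positive in TSA (15) numbered 59 with quantile normalization, 56 in the authors' table, 26 with at least 3 arrays above background, 9 with all 6, 114 with the trend, 545 with the replicate block as fixed terms, and 0 with no filter or with array weights. Probes more negative (931) numbered 1440, 515 with median centring, 420 with normexp, 1397, 593, 1984, 3402 and 0 under no filter and array weights, the unnamed values being for quantile normalization, 3 arrays, 6 arrays, trend and block in that order.

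Of 2539 values for 117 named genes, 29 in 7 genes took the other sign, and 0 of 1454 for the 67 apart genes did. Quantile normalization, normexp and the authors' table gave -0.0078, -0.0239 and -0.0331 for Nes and 0.0018, 0.0833 and 0.0749 for Pax6. DMSO arrays only gave 0.1671 for Pax6, 0.3382 for Fgf5 and -0.2344 for Lefty2, and TSA arrays only gave -0.0944 for Cdh2, -0.1166 for Eomes and 0.0376 for Otx2. Leaving out arrays gave -0.0944 to 1.0741 for Cdh2, -0.8078 to 1.2342 for Eomes, -0.885 to 0.3382 for Fgf5, -0.4651 to 1.2247 for Lefty2, -0.0064 to 0.236 for Nes, -0.24 to 0.0461 for Otx2 and -0.2906 to 0.1671 for Pax6. The 6 arrays and their 3 slides limit precision, and 61.1% of probes were detected on the dimmest array.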

Other observations

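Lists of general cell functions differed mainly on the dim array. The median of 29 tested cytosolic ribosomal protein genes was 0.15 in DMSO and 0.84 in TSA, and that of 18 interferon-stimulated genes 0.09 and 1.05, against 0.06 and 0.37 over all tested genes. S phase genes (0.14 and 0.69), glycolysis and hypoxia genes (0.11 and 0.74) and cholesterol synthesis genes (0.23 and 0.76) had the same form. In each of these 5 lists 0 genes were apart in either direction. For interferon-stimulated genes experiments 1 and 3 also differed from each other. Their median levels were -3.46 and -0.68 in DMSO against -1.51 in experiment 2, and -1.90 and 0.58 in TSA against 1.68. Of these 18 genes 1 did not overlap on the higher side, against 34.7% of all genes.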
